A study of Mus musculus with 7 samples.

Results

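Promoter H3K18La was examined at 44 cell cycle genes in the developing mouse retina. The mark is lactate joined to lysine 18 of histone H3. A gene was taken up where the deposited annotation placed a peak at its promoter, counted as -1000 to 500 bases from where transcription begins, under the gene's own symbol, and the peak nearest the start stood for the gene. By this rule 29 of the 44 genes had a promoter peak, among 11686 protein-coding genes with one. Of the 29, 22 are proliferation genes, 2 encode pocket proteins and 5 encode cyclin-dependent kinase inhibitors. The measurements came from CUT&Tag, in which an antibody brings an enzyme to the mark and the DNA around it is recovered and sequenced. Whole retinas of C57Bl/6J mice, with no treatment or transgene named in the labels, were taken at postnatal days 4, 10 and 28 (P4, P10 and P28) and dissociated into single cells. Each of the younger ages had 2 libraries and P28 had 3. The series describes them as biological replicates, and the sources used here do not say how many animals went into a library.

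The cell cycle runs on kinases that act only when bound to a cyclin. In G1 the D-type cyclins with Cdk4 and Cdk6, and then the E-type cyclins, phosphorylate the pocket proteins, which frees E2F factors to switch on genes for DNA replication. A later wave of genes, held back by a repressor complex at CHR elements in quiescent cells, drives mitosis. The inhibitors of the Cip/Kip and Ink4 families stop the kinases and hold cells out of cycle. In the mouse retina the last progenitors divide in the days after birth, and the rods, the most abundant neurons, mature over the following weeks.

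The promoters of the genes that the results turn on are shown here to place the marked DNA. Each line gives the 150 bases before a RefSeq start on GRCm38.p6, read 5′ to 3′ on the gene's strand. Capitals mark an E2F match (TTTNNCGC), a CHR match (TTTGAA) or a CCAAT match, each searched on both strands, where neighbouring matches may overlap. E2f3, Cdkn1b and Pcna are the members with the highest mean signal at P28. Mcm2 is a replication gene, Cdc20 a mitotic gene, Cdk1 is the kinase of mitosis, and Mcm5 was without a read at P10. Mcm2 held a CHR match and no E2F match, which is not typical of the replication genes described below. Mcm6 has no promoter peak and its nearest peak was 2587 bases from a start. The printed stretch lay within the gene's peak for every one but Mcm6.
E2f3 (chr13:29986064-29986213, minus strand): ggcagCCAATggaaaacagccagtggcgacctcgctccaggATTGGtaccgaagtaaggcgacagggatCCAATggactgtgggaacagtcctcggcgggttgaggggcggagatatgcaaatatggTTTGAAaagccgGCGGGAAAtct
Cdkn1b (chr6:134920251-134920400, plus strand): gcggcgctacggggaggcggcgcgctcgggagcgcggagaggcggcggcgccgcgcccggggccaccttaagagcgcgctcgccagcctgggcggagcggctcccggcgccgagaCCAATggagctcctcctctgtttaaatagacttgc
Pcna (chr2:132253181-132253330, minus strand): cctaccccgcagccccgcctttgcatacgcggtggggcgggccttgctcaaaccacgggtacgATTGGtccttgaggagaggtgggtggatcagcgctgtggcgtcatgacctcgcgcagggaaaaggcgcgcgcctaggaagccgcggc
Mcm2 (chr6:88898781-88898930, minus strand): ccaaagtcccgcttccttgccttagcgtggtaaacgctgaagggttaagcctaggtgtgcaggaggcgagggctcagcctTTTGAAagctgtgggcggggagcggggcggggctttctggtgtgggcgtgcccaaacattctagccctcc
Mcm5 (chr8:75109359-75109508, plus strand): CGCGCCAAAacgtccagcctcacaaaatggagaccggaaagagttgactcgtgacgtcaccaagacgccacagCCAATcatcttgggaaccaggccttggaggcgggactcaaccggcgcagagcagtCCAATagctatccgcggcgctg
Mcm6 (chr1:128359706-128359855, minus strand): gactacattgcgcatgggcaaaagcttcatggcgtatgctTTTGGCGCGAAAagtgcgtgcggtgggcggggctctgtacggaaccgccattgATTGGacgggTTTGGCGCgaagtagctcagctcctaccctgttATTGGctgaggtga
Cdk1 (chr10:69352913-69353062, minus strand): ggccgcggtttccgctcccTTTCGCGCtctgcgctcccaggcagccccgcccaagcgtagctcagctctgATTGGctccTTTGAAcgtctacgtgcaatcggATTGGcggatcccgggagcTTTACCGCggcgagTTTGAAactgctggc
Cdc20 (chr4:118437344-118437493, minus strand): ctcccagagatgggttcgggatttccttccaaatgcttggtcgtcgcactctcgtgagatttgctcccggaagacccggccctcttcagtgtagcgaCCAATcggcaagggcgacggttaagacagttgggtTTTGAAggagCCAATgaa

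Among members, the matches differed between roles, which is given as a description. RefSeq promoters of 300 bases, 250 before and 50 after the start, were found for 35 of the 44 members. The E2F letters were in 6 of 8 promoters of replication genes, in 1 of 11 of mitotic genes and in 0 of 4 of inhibitor genes, against 6.4% of 16522 protein-coding promoters. The CHR letters were in 8 of 11 promoters of mitotic genes and in 1 of 8 of replication genes, against 15.6% of all. The CCAAT letters were in 10 of 11 promoters of mitotic genes, against 38.7% of all. The GC box letters GGGCGG were in 28 of 35 member promoters, against 48.0% of all. Of the 24 matched members with a promoter peak, the searched stretch of 21 overlapped the peak, and those of Ccnd3, E2f1 and Mki67 lay outside it and are left out here. The 8 with E2F letters had a median signal of 4.42 RPKM at P28 and the 13 without had 7.30 RPKM. The 6 with CHR letters had a median of 4.30 RPKM and the 15 without had 7.20 RPKM, and each group with letters held E2f3 at the top, with 22.41 RPKM. RPKM divides reads by the length of the peak and by a normalized library size, so levels can be set side by side between genes. A match is only a stretch of letters, and the comparison of signals is a description without a test.

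The libraries differed in depth, which limits what can be read at the younger ages. Reads in peaks numbered 295383 and 358971 at P4, 199970 and 660740 at P10, and 1615969 to 8274373 at P28. The median member was measured on 3 reads in both P4 libraries, on 1 and 3 at P10, and on 21, 94 and 47 at P28. In P10 replicate 1, 12 of the 29 members had no read, against 27.8% of all 11686 promoters, while every member had a read in every P28 library. The share of the normalized library that fell in peaks was 16.3% and 17.6% at P4, 36.1% and 52.1% at P10, and 42.4% to 57.1% at P28. A level at which every library of an age had 3 reads or fewer is called the floor below, and 14 of the 29 members were at the floor at P4. P28 replicate 1 was the only library of the second batch that the labels give, so the counts called from P4 to P28 are also given for batch 1 alone. Rod genes checked the tissue. Of 10 rod markers 9 had a promoter peak, and all 9 rose from P4 to P28 (8 in batch 1 alone). With each library scaled to its reads in peaks 5 rose, and their median log2 change went from 2.46 to 1.22 over the 9. The pooled signal of the rod markers was 3.00 and 3.72 RPKM at P4, 28.87 and 26.32 at P10, and 18.10 to 24.23 at P28. Of 9 progenitor markers 8 had a promoter peak, with pooled signals of 1.28 and 2.00 RPKM at P4 and 3.77 to 4.34 at P28. Of 6 Müller glia markers 5 had a promoter peak, 1 of them, Glul, rose by P28, and their pooled signal was 1.68 and 2.54 RPKM at P4, 3.01 and 6.14 at P10, and 7.03 to 9.47 at P28. Of the markers of other cells, 0 of 5 for microglia, 2 of 5 for endothelium, 2 of 5 for pigment epithelium, 1 of 3 for astrocytes and 2 of 4 for lens had a promoter peak, and none of these was called from P4 to P28. From P4 to P10 Best1 of pigment epithelium was called lower (limma, log2 change -1.22, adjusted p 0.00594), at the floor at both ages. The part of cell makeup in the changes below was not tested. In whole tissue, more cells with the mark and more mark per cell cannot be told apart.

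The question for the time course was whether promoter H3K18La at genes that drive division moved with that at genes that end it. From P4 to P28 it rose at 10 of the 29 members and fell at none (limma on log2(RPKM + 1), adjusted p under 0.01 over all 108253 peaks). These 10 are 34.5% of the members, beside 32.5% of all 11686 promoters called higher, so the share was near the background. At an unadjusted p under 0.05, 19 of 29 members were higher and 0 lower, beside 63.9% of all promoters higher. With voom on the recovered reads 15 were called higher and 0 lower, beside 52.2% of all promoters called higher. By role, 3 of 5 inhibitor genes rose, 3 of 4 replication genes, 1 of 1 nucleotide synthesis gene, 2 of 6 G1 cyclin and kinase genes, 1 of 3 E2F genes, 0 of 8 mitotic genes and 0 of 2 pocket protein genes. The median fitted change was 1.32 over the members and 1.33 over all promoters on the log2 scale. It was 1.30 for the proliferation genes and 1.61 for the inhibitor genes. In 25 of 29 members every P28 library was above every P4 library, beside 78.9% of all promoters.

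**Figure D1:**
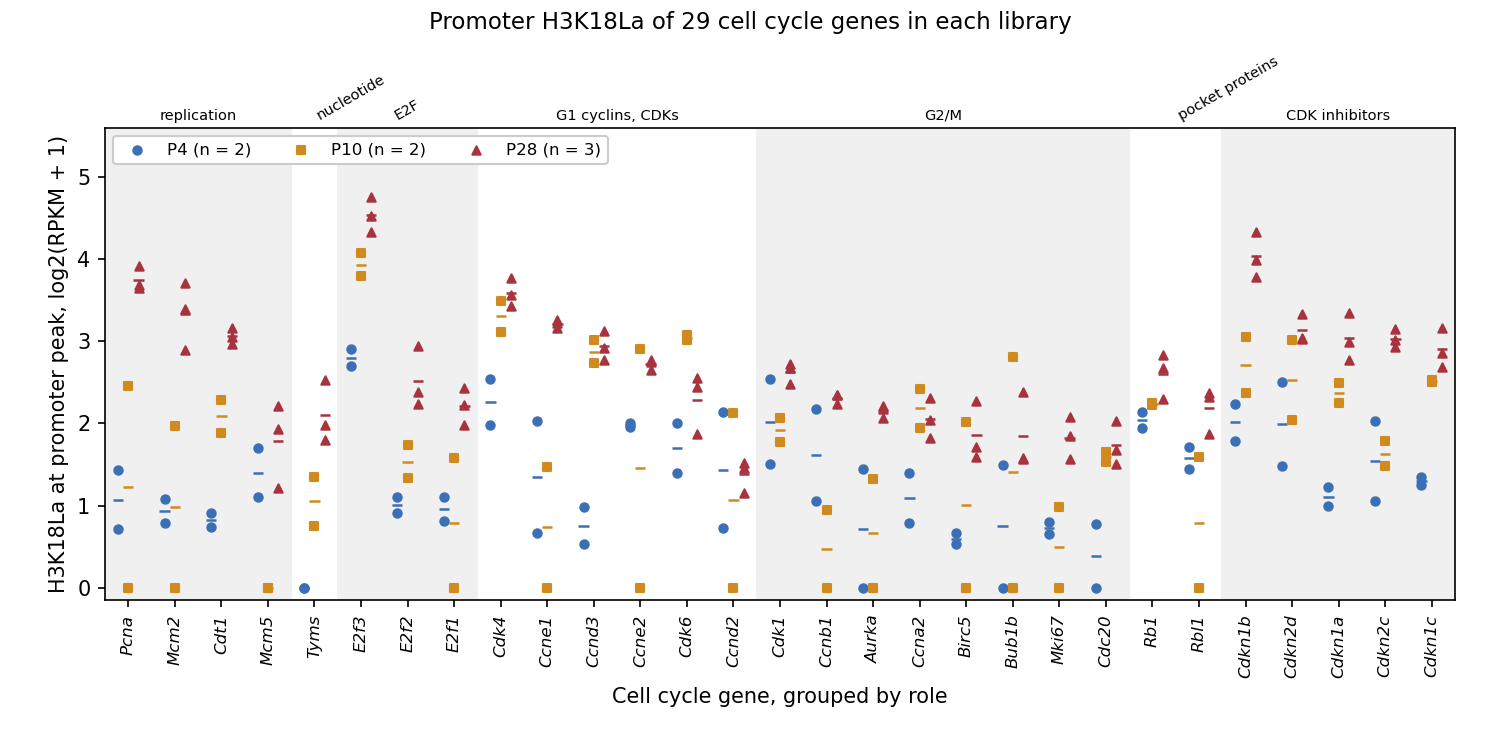
H3K18La at the promoter peak of each of 29 cell cycle genes, as log2(RPKM + 1), in every library (points; short lines are group means), grouped by role and ordered within a role by the mean at P28. E2f3 and Cdkn1b stand highest at P28, while the 8 mitotic genes stay low, and P10 often has 1 library at 0.

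The calls depended on single libraries. Without P4 replicate 1 no member was called, and without P4 replicate 2 there were 2, beside 8.95% and 9.94% of all promoters called higher. Batch 1 alone, without P28 replicate 1, gave 5, beside 16.7% of all promoters called higher, and leaving out P28 replicate 2 or P28 replicate 3 gave 3 each, beside 12.3% and 12.1%. The share over all promoters thus fell along with the members' count. The scale mattered as well. With each library scaled to its reads in peaks the median change over all promoters went from 1.33 to 0.28 and that over the members from 1.32 to 0.32, and 1 member, Tyms, was called, beside 7.2% of all promoters called higher and 3.68% lower. The changes below are on the deposited scale unless another is named.

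**Figure D2:**
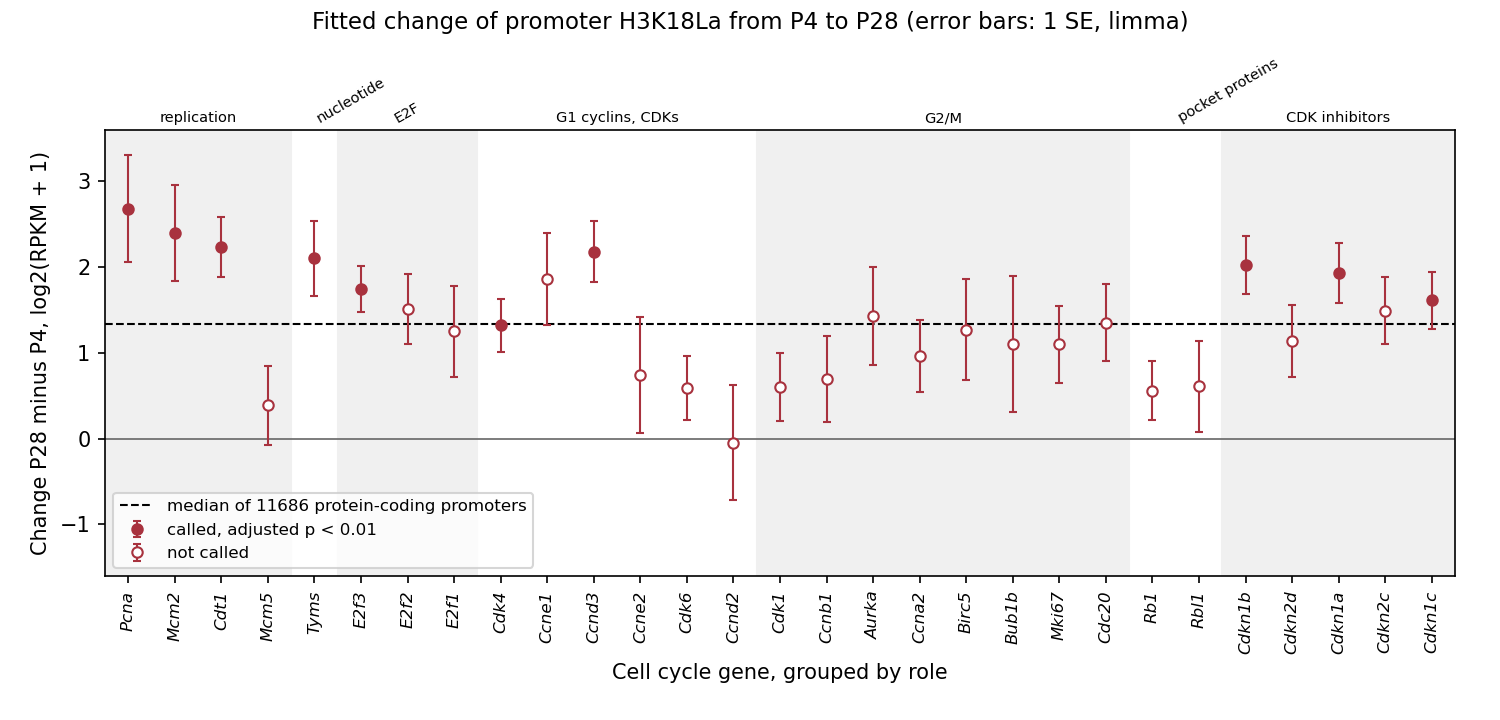
Fitted change of promoter H3K18La from P4 to P28 on the log2(RPKM + 1) scale for each member (error bars are 1 SE, 2 against 3 libraries), with filled points for genes called at an adjusted p under 0.01. The dashed line is the median of all promoters, 1.33, and 28 of the 29 members lie above 0.

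The inhibitors of the Cip/Kip family, which bind cyclin and kinase together, were all called higher at P28 in the limma fit. Cdkn1b had one of the strongest promoter peaks of the list (chr6:134919865-134921159, over its start). It measured 2.46 and 3.69 RPKM at P4, 4.18 and 7.30 at P10, and 12.76, 14.81 and 19.07 at P28. Its groups did not overlap at any step, and from P4 to P28 the ratio of the means was 5.06 (log2 change 2.02, SE 0.34, adjusted p 0.00147). Cdkn1a, a target of the p53 pathway, lay at chr17:29093539-29095937 and measured 1.33 and 0.99 RPKM at P4, 3.76 and 4.60 at P10, and 5.80, 6.97 and 9.14 at P28. It rose 6.29-fold (log2 change 1.93, SE 0.35, adjusted p 0.00223), with no overlap between ages. Cdkn1c, which is imprinted, lay at chr7:143458987-143461304 and measured 1.37 and 1.54 RPKM at P4, 4.67 and 4.76 at P10, and 7.92, 5.46 and 6.26 at P28. It rose 4.49-fold (log2 change 1.61, SE 0.33, adjusted p 0.00445). With reads-in-peaks scaling the changes of Cdkn1b, Cdkn1a and Cdkn1c were 0.71, 0.84 and 0.48 and none was called. The call of Cdkn1c was the least stable of the 3, since it was kept in 8 of 17 alternatives. It was lost in batch 1 alone, with median centring, with quantile normalization, with the replicate block and without any single P4 or P28 library. Cdkn1a and Cdkn1b were called in batch 1 alone, and each lost its call without either P4 library and without P28 replicate 3. Cdkn1a also lost it without P28 replicate 2 and with the replicate block, and Cdkn1b with quantile normalization (log2 change 0.87, adjusted p 0.0318).

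The Ink4 inhibitors bind Cdk4 and Cdk6 alone. Those among the members, Cdkn2c and Cdkn2d, had higher values at P28, and neither passed the threshold in the limma fit. Cdkn2b, an Ink4 gene of the pathway list below, measured 3.38 and 0.89 RPKM at P4 and 1.95, 2.65 and 3.34 at P28. Its P4 and P28 values overlapped (log2 change 0.33, adjusted p 0.68 in the limma fit). Cdkn2c (chr4:109665129-109667340) measured 3.08 and 1.08 RPKM at P4, 2.45 and 1.78 at P10, and 6.64, 7.06 and 7.89 at P28. Every P28 library was above the earlier ones, and the log2 change of 1.49 had an SE of 0.39 and an adjusted p of 0.0137. With voom on the recovered reads Cdkn2c was called (log2 change 1.82, adjusted p 0.000662). Cdkn2d (chr9:21290725-21291488) measured 1.78 and 4.69 RPKM at P4, 7.09 and 3.10 at P10, and 7.21, 7.16 and 9.04 at P28. Its log2 change was 1.14 (SE 0.42, adjusted p 0.0525) and was -0.13 with reads-in-peaks scaling, and P4 and P10 overlapped. Ranked among all 11686 promoters, the inhibitor genes had median percentiles of 58.2 and 48.0 in the P4 libraries and of 72.9, 69.5 and 73.6 at P28.

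The genes of the pocket proteins, which restrain E2F, had smaller fitted changes. Rb1 (chr14:73324995-73326469) measured 3.39 and 2.83 RPKM at P4, 3.67 and 3.74 at P10, and 3.91, 5.38 and 6.09 at P28. The ages did not overlap, and the log2 change of 0.56 from P4 to P28 (SE 0.34, adjusted p 0.202) was not called. Rbl1 (chr2:157204298-157205085) measured 1.73 and 2.27 RPKM at P4, 0.00 and 2.00 at P10, and 4.0, 2.65 and 4.16 at P28, a log2 change of 0.61 (SE 0.53, adjusted p 0.367). Their pooled signal divided by that of all promoters was 1.451 and 1.309 at P4, 0.572 and 0.598 at P10, and 0.611, 0.633 and 0.676 at P28. With reads-in-peaks scaling the fitted changes were -0.70 for Rb1 and -0.54 for Rbl1, and with quantile normalization -0.43 and -0.07.

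**Figure D3:**
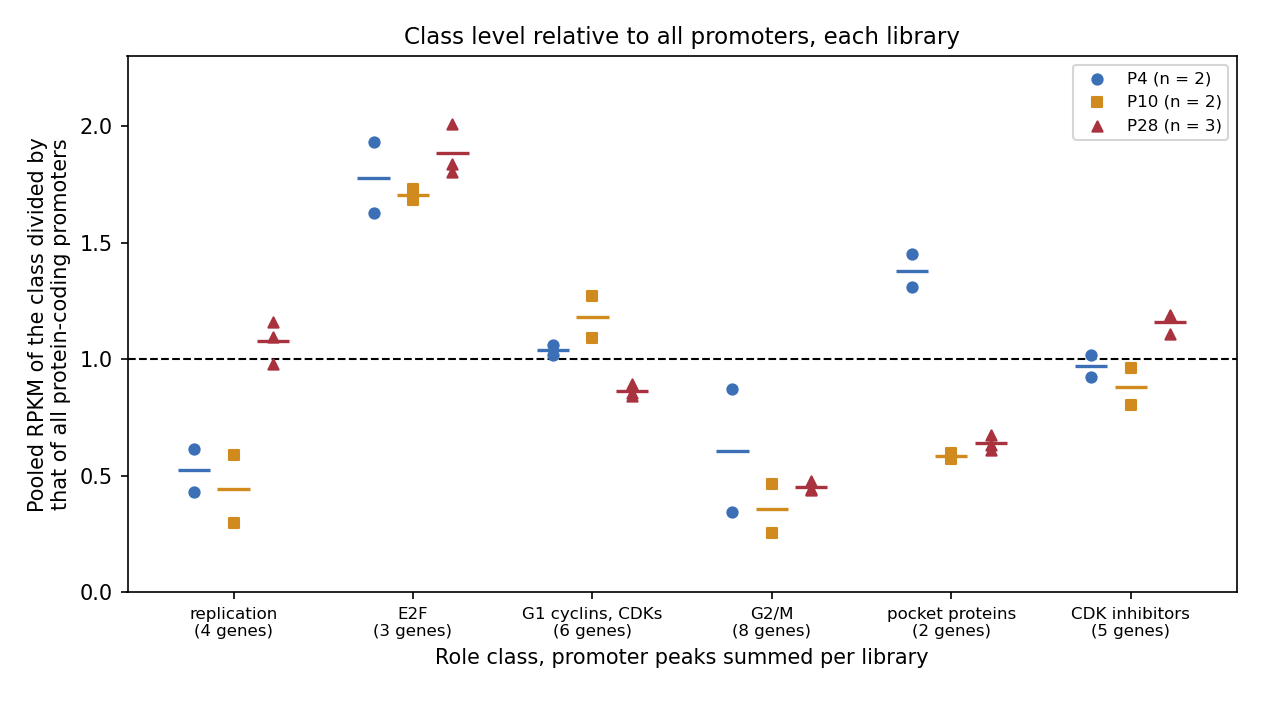
Pooled RPKM of each role class divided by that of all 11686 protein-coding promoters in the same library (points; lines are group means; the dashed line is equality). The pocket protein genes went from above to below equality after P4, the replication genes reached it at P28, and the mitotic genes were below it in every library.

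Of the E2F activators, E2f3 had the highest promoter signal of all members at every age. Its peak (chr13:29984680-29987071) measured 6.46 and 5.49 RPKM at P4, 12.83 and 15.82 at P10, and 19.08, 22.07 and 26.06 at P28. The ages did not overlap, and from P4 to P28 the ratio was 3.75 (log2 change 1.74, SE 0.27, adjusted p 0.000972). Its percentile among promoters was already near the top at P4 and had little room to rise, at 98.8 and 96.7 at P4 and 97.3 to 98.0 at P28. With quantile normalization, which holds ranks, its change was 0.04. The call was lost there, with reads-in-peaks scaling and without either P4 library, and kept in the other 13 of 17 alternatives. E2f1 (chr2:154569680-154570470) measured 1.15 and 0.75 RPKM at P4, 0.00 and 1.99 at P10, and 3.65, 2.95 and 4.37 at P28. It was at the floor at P4 and P10, and its log2 change of 1.25 (SE 0.53) had an adjusted p of 0.082. E2f2 had 4.87 RPKM ± 1.58 (SD, n = 3) at P28 and a log2 change of 1.51 with an adjusted p of 0.0156.

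Among G1 cyclins and kinases the changes were mixed. Ccnd3, a D-type cyclin, spans chr17:47505051-47599691 on the plus strand and had 2 promoter peaks. The one used (chr17:47596920-47599987) lay over a protein-coding start at the downstream end of that span, away from the RefSeq start at 47505051. It measured 0.44 and 0.97 RPKM at P4, 7.06 and 5.65 at P10, and 5.81, 6.55 and 7.71 at P28. The rise was already 8.97-fold over P4 at P10 (log2 change 2.12, SE 0.38, adjusted p 0.00316), and was 9.45-fold at P28 (log2 change 2.18, adjusted p 0.00119). Cdk4, the kinase it binds, lay at chr10:127063213-127064447 and measured 2.94 and 4.83 RPKM at P4, 10.23 and 7.66 at P10, and 9.77, 10.85 and 12.59 at P28. It rose 2.85-fold (log2 change 1.32, SE 0.31, adjusted p 0.00788), though its change was -0.01 with reads-in-peaks scaling and 0.06 with quantile normalization. The call of Cdk4 was kept in 7 of 17 alternatives. It was lost with these 2 scalings, in batch 1 alone and without any other single P4 or P28 library. Median centring, a pseudocount of 0.1 and the replicate block lost it too. The call of Ccnd3 was kept in 15 of 17, all but reads-in-peaks scaling and without P4 replicate 1. Ccnd2 (chr6:127151652-127152355) had the lowest P28 signal of the members, with 0.65 and 3.39 RPKM at P4, 0.00 and 3.36 at P10, and 1.86, 1.75 and 1.23 at P28. Its ages overlapped, the log2 change was -0.05 (SE 0.67, adjusted p 0.956), and without P4 replicate 2 it was 0.66.

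The E-type cyclins, partners of Cdk2 at the start of DNA synthesis, differed from each other in spread. Ccne1 (chr7:38107141-38108168) measured 3.09 and 0.58 RPKM at P4, 1.76 and 0.00 at P10, and 7.91, 8.31 and 8.57 at P28. All P28 libraries were above the earlier ones, with a log2 change of 1.86 (SE 0.54, adjusted p 0.0208). Ccne1 was called in 5 of 17 alternatives, among them voom on the recovered reads (log2 change 2.27, adjusted p 0.000462). With reads-in-peaks scaling the change of Ccne1 was 0.75 and was not called. Ccne2 (chr4:11190256-11191834) measured 2.88 and 3.02 RPKM at P4, 0.00 and 6.49 at P10, and 5.82, 5.72 and 5.25 at P28, a log2 change of 0.74 (SE 0.68, adjusted p 0.398). With reads-in-peaks scaling its change was -0.52 and with quantile normalization -0.22. Cdk6 was singled out after its values were seen, since both P10 libraries, at 7.06 and 7.40 RPKM, were above those at P28, at 2.67, 4.42 and 4.86. P4 gave 3.02 and 1.63 RPKM, and neither the change from P4 to P10 (log2 1.34, adjusted p 0.0289) nor that from P10 to P28 (log2 -0.75, adjusted p 0.192) was called.

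Replication genes had the largest median change of the roles with several members, 2.31, from few reads at P4. Pcna, the sliding clamp of the polymerases (chr2:132252680-132253386), measured 0.64 and 1.69 RPKM at P4, 0.00 and 4.46 at P10, and 11.87, 14.08 and 11.48 at P28. It was represented by 3 reads at P4 and 241 at P28, a ratio per normalized library size of 12 with a 95% exact counting interval of 4.07 to 58.8, and the log2 change was 2.68 (SE 0.62, adjusted p 0.00742). Mcm2, a subunit of the replicative helicase (chr6:88898373-88899187), measured 1.12 and 0.73 RPKM at P4, 0.00 and 2.90 at P10, and 6.44, 9.50 and 12.08 at P28. Its 3 reads at P4 against 203 at P28 gave a ratio of 10.1 (counting interval 3.42 to 49.6), and the log2 change was 2.40 (SE 0.56, adjusted p 0.00811). Cdt1, which loads that helicase (chr8:122566410-122568433), measured 0.67 and 0.88 RPKM at P4, 2.68 and 3.89 at P10, and 7.91, 7.26 and 6.83 at P28. The ratio was 9.49 (counting interval 4.32 to 26) and the log2 change 2.23 (SE 0.35, adjusted p 0.00111), with no overlap between ages. Of the 3 calls only that of Cdt1 was kept in batch 1 alone, and it was lost with reads-in-peaks scaling and without P4 replicate 1 or P28 replicate 2. The calls of Pcna and Mcm2, kept in 10 and 9 of 17 alternatives, were lost with reads-in-peaks scaling, with a pseudocount of 0.1 and without any single P4 or P28 library, and that of Mcm2 with the replicate block too.

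Mcm5, another helicase subunit (chr8:75109120-75109918), did not share this. It measured 1.14 and 2.24 RPKM at P4, 0.00 and 0.00 at P10, and 1.31, 3.62 and 2.81 at P28, so that P4 and P28 overlapped and P10 lay below both. Mcm5 was at the floor at P4, with 2 and 3 reads, and at P10, with 0 in both libraries, so the order of these ages was not resolved. The log2 change from P4 to P28 was 0.39 (SE 0.46, adjusted p 0.512), and it was -0.68, -0.14 and -0.15 with reads-in-peaks scaling, median centring and quantile normalization. Tyms, thymidylate synthase (chr5:30072648-30073809), had no read at P4, 1.55 and 0.68 RPKM at P10, and 2.48, 2.96 and 4.76 at P28. Against 3 reads in each P4 library it was at least 2.51-fold higher at P28 (log2 change 2.10, SE 0.44, adjusted p 0.00465), a call lost in batch 1 alone, without any other single P4 or P28 library, with median centring and with the replicate block. The replication genes had median percentiles among promoters of 28.8 and 39.5 at P4 and of 72.3, 75.9 and 71.7 at P28.

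None of the 8 mitotic genes with a promoter peak was called, beside the 32.5% of all promoters. At P4, 6 of the 8 were at the floor, beside 4609 of all 11686 promoters, so their changes rested on few reads. At an unadjusted p under 0.05, 4 of the 8 were higher and 0 lower, beside 63.9% of all promoters higher. With voom on the recovered reads 2, Aurka and Cdc20, were called, beside 52.2%. Their median change was 1.10, and in 7 of 8 every P28 library was above every P4 library, beside 78.9% of all promoters. Cdk1 (chr10:69352465-69353207) measured 1.83 and 4.82 RPKM at P4, 2.43 and 3.18 at P10, and 4.59, 5.38 and 5.58 at P28. Its P4 and P28 values overlapped, the log2 change was 0.60 (SE 0.40, adjusted p 0.239), and it was -0.64 with reads-in-peaks scaling and -0.38 with quantile normalization. Ccnb1, its cyclin (chr13:100786275-100787121), measured 1.07 and 3.52 RPKM at P4, 0.00 and 0.93 at P10, and 3.72, 4.06 and 4.08 at P28. Both P10 libraries were below both P4 libraries, on 0 and 1 reads against 2 and 5, so the order of these ages was not resolved. Neither the change from P4 to P10 (log2 -1.14, adjusted p 0.137) nor the one from P4 to P28 (log2 0.69, adjusted p 0.279, and -0.44 with reads-in-peaks scaling) was called.

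The other mitotic genes were among the weakest promoters of the list. Mki67, the proliferation antigen, had a peak 276 bases upstream of its start (chr7:135716637-135717439), at 0.57 and 0.74 RPKM at P4, 0.00 and 0.98 at P10, and 1.96, 3.21 and 2.58 at P28. The log2 change was 1.10 (SE 0.45, adjusted p 0.0706). Cdc20, an activator of the anaphase-promoting complex (chr4:118436807-118437644), measured 0.00 and 0.71 RPKM at P4, 2.15 and 1.88 at P10, and 2.19, 1.83 and 3.09 at P28, a log2 change of 1.35 (SE 0.45, adjusted p 0.0358). Aurka, a spindle kinase (chr2:172370146-172371193), measured 0.00 and 1.71 RPKM at P4, 0.00 and 1.50 at P10, and 3.50, 3.17 and 3.63 at P28, a log2 change of 1.43 (SE 0.57, adjusted p 0.0678). Birc5, Bub1b and Ccna2 had P28 means of 2.71, 2.71 and 3.19 RPKM. The median percentile of the mitotic genes among promoters was 22.9, 29.5 and 33.4 in the P28 libraries, and their pooled signal was 0.443, 0.438 and 0.478 of that of all promoters. At P4 the same ratio was 0.345 and 0.871, on 10 and 20 reads.

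At P28, where depth allowed levels to be ordered, the members spanned from 1.61 RPKM ± 0.34 (SD, n = 3) for Ccnd2 to 22.41 ± 3.50 for E2f3. Cdkn1b followed E2f3 with 15.55 ± 3.22, and the next were Pcna with 12.48 ± 1.40, Cdk4 with 11.07 ± 1.42 and Mcm2 with 9.34 ± 2.82. Within each P28 library E2f3 was above Cdkn1b, at 19.08 against 12.76 RPKM, 22.07 against 14.81 and 26.06 against 19.07, and Cdkn1b was above Pcna in all 3 as well. Across libraries the values of neighbours from Cdkn1b to Mcm2 overlapped. At the lower end Cdc20, Mcm5 and Mki67, at 2.37 ± 0.65, 2.58 ± 1.17 and 2.59 ± 0.63, could not be ordered.

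Between P4 and P10, 1 member rose and none fell, beside 11.1% of all promoters called higher and 0.941% called lower. It was Ccnd3, at the peak away from its RefSeq start. A further 8 members, E2f3 among them, had higher values and Mcm5 a lower one at an unadjusted p under 0.05, beside 3676 of all 11686 promoters higher and 553 lower, so the members' share was near the background. In 13 of 29 members both P10 libraries were above both P4 libraries, beside 45.3% of all promoters. The Ccnd3 call was lost without either P4 library, without P28 replicate 2 or with estimated library weights, and with reads-in-peaks scaling Mcm5 was called lower in its place. Between P10 and P28 no member was called, and 0% of all promoters were called higher. At an unadjusted p under 0.05 there were 15 of 29 members, all higher at P28, beside 4393 of 11686 promoters higher. With voom on the recovered reads 3 were called, Ccne1, Mcm2 and Pcna, beside 4.4% of all promoters called higher. In 20 of 29 members every P28 library was above both P10 libraries, beside 54.7% of all promoters, and without P10 replicate 2 the number called was 9, beside 20.4% of all promoters called higher. Batch 1 alone gave 0 calls. The comparisons share libraries, so they do not stand as separate evidence.

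The 15 members without a promoter peak included much of the replication and mitotic machinery. They were the helicase subunits Mcm3, Mcm4, Mcm6 and Mcm7, the loader Cdc6, the ribonucleotide reductase genes Rrm1 and Rrm2, the G1 genes Ccnd1 and Cdk2, and Ccnb2, Foxm1, Top2a, Aurkb, Plk1 and Bub1 of mitosis. A promoter peak was found for 65.9% of the members and for 53.2% of 21951 protein-coding genes. For 3 of the 15 a peak over their own promoter had been assigned to a gene that begins close by, Mcm4 with Prkdc, Mcm7 with Ap4m1 and Foxm1 with Rhno1. The peak at Mcm4 and Prkdc (chr16:15636960-15638208) measured 3.80 RPKM ± 1.32 (SD, n = 2) at P4, 3.02 ± 0.19 (n = 2) at P10 and 3.54 ± 0.48 (n = 3) at P28, a log2 change of -0.06 (SE 0.36, adjusted p 0.909). The one at Mcm7 and Ap4m1 went from 1.74 ± 0.80 to 3.24 ± 2.05 RPKM, and the one at Foxm1 and Rhno1 from 0.55 ± 0.78 to 3.51 ± 1.10, and neither was called (adjusted p 0.47 and 0.0383). The other 12 had no peak of the merged set in the promoter window of any of their protein-coding transcripts. Such a gene has no value in the table, so its level at each age was not measured here.

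Beyond promoters, 82 peaks were annotated to 22 members. From P4 to P28, 16 of them rose and 0 fell, beside 16.6% of the 91109 peaks outside promoters called higher and 4.84% called lower. In batch 1 alone 9 rose, beside 10.4% of such peaks. With reads-in-peaks scaling the balance was 4 higher and 5 lower, with a median change of 0.27, beside 7.08% higher and 17.4% lower over all such peaks. The median change was 1.07 over the 82 peaks and 0.54 over all such peaks. From P4 to P10, 10 rose and 1 fell, beside 11.1% called higher and 8.37% called lower among all such peaks. E2f3 had 17 of these peaks, of which 6 rose by P28. The peaks named in this paragraph were chosen after their values were seen. One 1974 bases upstream of the E2f3 start (chr13:29988037-29988420) went from 3.92 RPKM ± 1.15 (SD, n = 2) at P4 to 56.95 at P10 and 44.35 ± 10.57 (n = 3) at P28, with log2 changes of 3.58 (adjusted p 0.000381) and 3.20 (adjusted p 0.000129) over P4. An intronic one (chr13:29925764-29926977) went from 2.16 ± 0.41 to 19.87 ± 3.91 RPKM at P28 (log2 change 2.71, adjusted p 0.000198). Ccnd1, without a promoter peak, had 14 peaks, of which 2 rose by P28 and 1 fell by P10. The one that fell (chr7:145044811-145045216), 104886 bases upstream, had 3.71 RPKM ± 1.09 at P4, 0.00 at P10 and 1.67 ± 0.29 at P28 (log2 change to P10 -2.22, adjusted p 0.00537). This fall rested on 4 and 2 reads at P4 and 0 in both shallow P10 libraries, so the level at P10 was not resolved. Cdk6 had 13, of which 4 rose by P10 and none was called at P28. The difference between P10 and P28 at these 4 was not called. The other 9 differed in which age had the highest mean, which was P10 for most of them and P4 or P28 for the rest. An exonic peak of Bub1b (chr2:118622717-118624228), 24506 bases from the start, went from 0.15 ± 0.21 to 8.97 ± 1.45 RPKM (log2 change 3.12, adjusted p 0.000457), while its promoter change of 1.10 had an adjusted p of 0.281.

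Other genes of the same pathways were examined in the same fit. Of 85 listed genes of replication, the E2F and DREAM complexes, further inhibitors and mitosis, 63 had a promoter peak. From P4 to P28 10 of these 63 rose and 0 fell, which is 15.9%, beside the 32.5% of all promoters, and their median change was 1.14, beside 1.33. In batch 1 alone 3 rose, beside 16.7% of all promoters, and with voom 28 were called higher and 1 lower, beside 52.2% called higher. With reads-in-peaks scaling 3 were called higher and 1 lower and the median change was 0.19, beside 7.2% higher and a median of 0.28 over all promoters. At an unadjusted p under 0.05, 30 were higher, which is 47.6% beside 63.9% of all promoters, and 1 was lower, which was Myc, named after its values were seen (log2 change -1.58, adjusted p 0.0342). By list, 3 of 22 replication genes, 2 of 11 E2F, pocket and DREAM genes, 0 of 1 inhibitor gene and 5 of 29 mitotic genes rose. The 5 with the largest changes among those called were Gins2, Cenpf, Rpa2, Nek2 and Fzr1. Gins2, a subunit of the replicative helicase complex (chr8:120588890-120590294), measured 0.97 and 2.55 RPKM at P4, 10.28 and 9.54 at P10, and 17.93, 16.62 and 22.74 at P28, a 10.9-fold rise (log2 change 2.91, SE 0.33, adjusted p 0.000261). Cenpf, a kinetochore protein, measured 0.84 and 1.11 RPKM at P4, on 1 read each, 3.36 and 10.26 at P10 and 8.78, 14.62 and 16.69 at P28 (log2 change 2.82, SE 0.45, adjusted p 0.00116). Rpa2, which coats single-stranded DNA, had no read at P4, 3.12 and 1.36 RPKM at P10 and 6.35, 4.36 and 5.08 at P28, at least 1.93-fold higher than 3 reads per P4 library allow (log2 change 2.63, SE 0.44, adjusted p 0.00145). Nek2, a centrosome kinase, went from 0.78 and 5.10 RPKM at P4 to 13.01, 13.97 and 15.35 at P28 (log2 change 2.20, SE 0.46, adjusted p 0.00471). Fzr1, which keeps the anaphase-promoting complex active in G1 and in resting cells, went from 1.35 and 2.37 RPKM to 10.40, 8.65 and 14.04 (log2 change 2.07, SE 0.35, adjusted p 0.00149). Gins2 and Fzr1 were also the 2 of the 63 called higher at P10, beside 11.1% of all promoters.

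**Figure D4:**
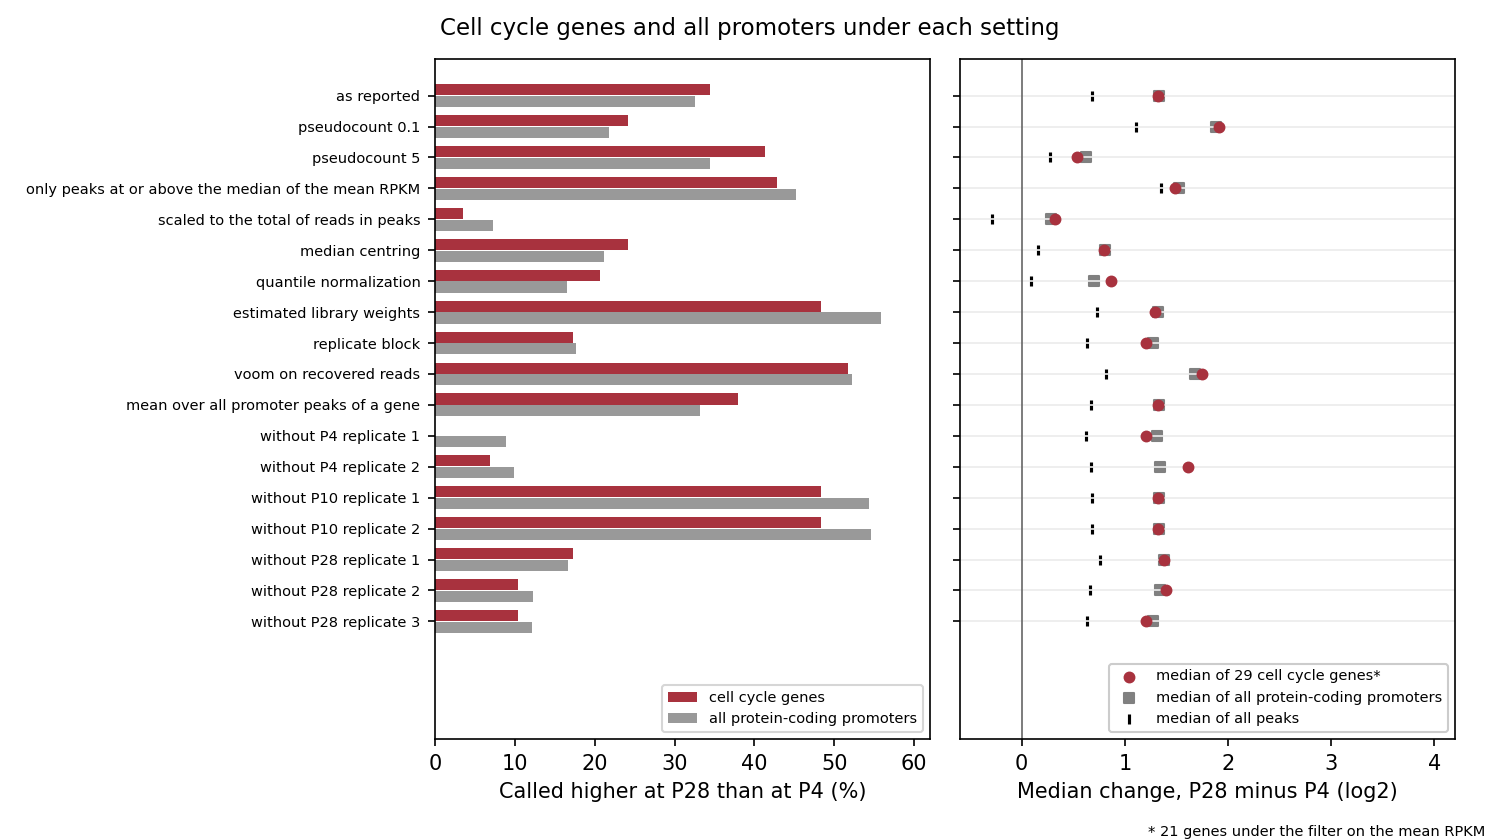
Left, percentage of the cell cycle genes and of all protein-coding promoters called higher at P28 than at P4 under each processing setting; right, the median change of each and of all peaks (log2). The cell cycle genes move with all promoters across settings, and both change far more between settings than they differ from each other.

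Set side by side, the median change of the proliferation genes minus that of all promoters was -0.04 on the log2 scale. The members' share of calls was below that of all promoters under some settings and above it under others, as the plot of settings shows.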

How the data were processed

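Reads were mapped by the authors to GRCm38 with nf-core/cutandrun, and peaks were called with MACS, merged over the ages and annotated with ChIPseeker (1.34.1). The authors counted reads per merged peak and deposited them as RPKM, normalized on large genomic windows. The study's text describes more replicates at the younger ages than the libraries analysed here. The enzyme is named differently in the labels (pA-MNase) and in the methods. A deposited table of the authors' own fold changes and p-values was not used. Multiplied by peak width, the RPKM of each library moved in equal steps, which came out as whole reads for 100.0% of peaks (within 0.01 reads) and gave the reads behind each value and an effective library size.

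Peaks were tested with limma 3.58.1 (R 4.3.3) on log2(RPKM + 1), a scale that understates changes of low peaks. The empirical Bayes step had a trend, and all 7 libraries and 108253 peaks entered 1 fit. Calls were made where the p adjusted by Benjamini-Hochberg over all peaks was under 0.01. Members, gene lists and marker lists were chosen with earlier results of these data known. Values in every library are given for members called in any comparison, the 3 highest and 3 lowest at P28, inhibitor and pocket protein genes, and members with a negative fitted change from P4 to P10 or P28. Of the pathway list the 5 largest called changes are named, with Myc and Cdkn2b besides. Where several promoter peaks lay equally near a start, one at a protein-coding transcript was taken, then the lower coordinate. Intervals are exact (Clopper-Pearson, 95%) and cover counting error only, since reads had no molecular identifiers. Promoter sequences came from RefSeq (GRCm38.p6). Alternatives covered the pseudocount, a filter, scaling, library weights, the replicate block, the choice of promoter peak, each library left out, and voom, which was chosen after seeing the data.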

Additional observations from a re-analysis of the deposited data

How the results depend on the processing

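In the comparison of P28 with P4 the main count of members called was 10. It was 1 when libraries were scaled to their reads in peaks, 6 with quantile normalization and 5 with the replicate block, beside 7.2%, 16.5% and 17.6% of all promoters called higher (32.5% as reported), and from 0 to 14 when single libraries were left out, beside 8.95% to 54.6%. Between P4 and P10 the count went from 1 to 2 with median centring and to 0 with estimated library weights. The shares of all promoters called higher were 10.6% and 3.89%, beside 11.1% as reported. Over the libraries left out the count ranged from 0 to 2, beside 2.54% to 14.5% of all promoters. Between P10 and P28 the count went from 0 to 1 with a pseudocount of 5 and to 3 with voom. The shares of all promoters called higher were 2.52% and 4.4%, beside 0% as reported. Over the libraries left out the count ranged from 0 to 9, beside 0% to 20.4% of all promoters. The cause of these shifts was not tested. The median change of proliferation genes less that of all promoters, -0.04, had a spread between P4 and P28 libraries of 0.097 (SD within ages) and moved by more than that to 0.12 with a pseudocount of 0.1, to 0.08 with reads-in-peaks scaling and to 0.24 with quantile normalization, and ranged from -0.18 to 0.13 over the libraries left out, so its sign was not settled. With reads-in-peaks scaling, which took the median change of all peaks from 0.68 to -0.29, the change from P4 to P28 turned negative for Ccna2 (-0.04), Ccnb1 (-0.44), Ccne2 (-0.52), Cdk1 (-0.64), Cdk4 (-0.01), Cdk6 (-0.60), Cdkn2d (-0.13), Mcm5 (-0.68), Rb1 (-0.70) and Rbl1 (-0.54). Median centring turned Mcm5 (-0.14). Quantile normalization turned Ccne2 (-0.22), Cdk1 (-0.38), Cdk6 (-0.20), Mcm5 (-0.15), Rb1 (-0.43) and Rbl1 (-0.07). The change of Ccnd2, -0.05, was 0.07 with a pseudocount of 0.1 and 0.06 with the replicate block, and ran from -0.76 to 0.66 over the libraries left out. Deviations of libraries with the same replicate number were hardly correlated (from -0.001 to 0.047). The median peak had 1 or 2 reads in each P4 and P10 library, so counting error could hide a shared effect. Whether the numbers pair the libraries was therefore not settled. The planned edgeR test on the recovered reads was not run, and voom on the same reads was run in its place. With 3 reads in the median member at P4, changes of low promoters could not be measured closely.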
